A study of Mus musculus with 24 samples.

Results

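The question taken up here is whether loss of Serpine2 changed gene expression differently in microglia and in astrocytes of mice that had received only saline. Of the 24 libraries of the series, the 12 from saline-injected mice were used, 3 in each of 4 groups: Serpine2 knockout microglia, control microglia, knockout astrocytes and control astrocytes. The mice were adults, and the controls were littermates that kept at least 1 functional Serpine2 allele, so a control may carry a single working copy. Each group held 2 libraries labelled male and 1 labelled female. Per the labels' protocols, whole brain was dounced and spun through Percoll for the microglia, cortex was digested with papain for the astrocytes, and both kinds of cell were captured on antibody-coated dishes. Cell type therefore goes together with brain region and preparation, and these cannot be told apart. For each gene, the knockout effect (log2 fold change, knockout over control) in astrocytes was subtracted from that in microglia. The result is called the difference of effects. It is positive where the knockout effect was higher in microglia. Of 52404 gene identifiers found in the tables of both cell types, 22829 had enough reads to be tested.

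Serpine2 encodes protease nexin-1, a secreted inhibitor that traps serine proteases such as thrombin, urokinase and tissue plasminogen activator. Microglia are the resident macrophages of the brain, and astrocytes are glia that regulate transmitters, ions and the blood-brain barrier. Antimicrobial proteins kill microbes or starve them of metals; many are stored in the granules of neutrophils, and some, such as lipocalin 2, are also made by reactive astrocytes.

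The libraries held 5354865 to 13584388 gene counts in microglia (6 libraries) and 13480023 to 23202563 in astrocytes (6 libraries). The 10 most abundant genes took 8.29% to 19.4% of these counts in microglia and 57.4% to 63.2% in astrocytes. After TMM scaling the effective library size was 9411852 to 19427907 in microglia and 6802770 to 10821264 in astrocytes. Levels are given as CPM, the reads of a gene as a rate per library size, scaled over all 12 libraries by the TMM factors, and are not divided by gene length. The mean log2 CPM of 12 astrocyte markers was 10.2 in knockout and 10.1 in control astrocytes, against 3.50 in knockout and 3.27 in control microglia. The mean of 12 microglia markers was 6.94 in knockout and 7.21 in control microglia, against 4.05 in knockout and 4.30 in control astrocytes. Each marker set was thus higher in the preparation of its own label, which does not measure purity. The 12 oligodendrocyte markers averaged 7.80 log2 CPM in knockout and 8.51 in control astrocytes, and 6.52 in knockout and 6.45 in control microglia. The microglia also held neuron transcripts, whose 12 markers averaged 6.24 log2 CPM in knockout and 6.27 in control microglia, against 3.52 in knockout and 3.75 in control astrocytes. Beyond the differing sex within each group, the labels do not say whether its libraries came from separate animals. The p-values thus measure only the spread between these libraries. The controls were littermates, but the main fit used no pairing of littermates.

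Serpine2 itself (ENSMUSG00000026249, chromosome 1, 79794197 to 79861180, minus strand, GENCODE M21 on GRCm38) was lower in the knockouts of both cell types. In microglia its level was 12, 11 and 13 CPM in knockouts, against 37.5, 28.9 and 54.8 CPM in controls. In astrocytes it was 36.4, 35.8 and 45.6 CPM in knockouts, against 185, 342 and 330 CPM in controls. No knockout library overlapped the controls of its cell type. The log2 knockout effect was −1.75 in microglia (SE 0.27, edgeR adjusted p 0.150), which was not called, and −2.86 in astrocytes (SE 0.28, edgeR adjusted p 0.000257), which was. The difference of effects was 1.11 (SE 0.37, 95% interval 0.32 to 1.90), the drop being larger in astrocytes, and was not called over all genes (edgeR unadjusted p 0.00873, adjusted p 0.903).

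No gene had a called difference of effects between microglia and astrocytes (0% of 22829 genes, edgeR quasi-likelihood test, Benjamini-Hochberg adjusted p under 0.05). The lowest adjusted p was 0.880. At an unadjusted p under 0.05 there were 1217 genes (5.33%), 696 positive (3.05%) and 521 negative (2.28%), and DESeq2 on the same counts called 2 predicted genes. With no filter on low counts edgeR called 86 genes, of which 20 were measurable in both cell types and 28 had a group at 0 reads; 16 of them are among the 30 genes named by their p further on. A gene had to be readable in both cell types for its difference to be informative, and 14914 of the tested genes passed the read filter within each cell type on its own. These are called measurable in both. Among them 371 (2.49%) had an unadjusted p under 0.05, and the median SE of the difference was 0.48 log2 units, against 0.70 over all tested genes. Within a cell type, the knockout effect was called for no gene in microglia (0%; 92 genes or 0.403% had an unadjusted p under 0.05, and DESeq2 called 4) and for 2 in astrocytes (0.00876%; 2094 genes or 9.17% had an unadjusted p under 0.05). DESeq2 called 128 genes in astrocytes, and edgeR with no filter on low counts called 431 there and 5 in microglia. The 2 were Serpine2 and the predicted gene Gm28320. The typical coefficient of variation between libraries was 29.0% in microglia and 45.3% in astrocytes over all tested genes. Over genes measurable in both it was 26.8% in microglia and 35.0% in astrocytes. The fit gave each gene 1 spread shared by all 4 groups. The shares at an unadjusted p under 0.05 therefore do not rank the cell types by the strength of the knockout effect.

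**Figure D1:**
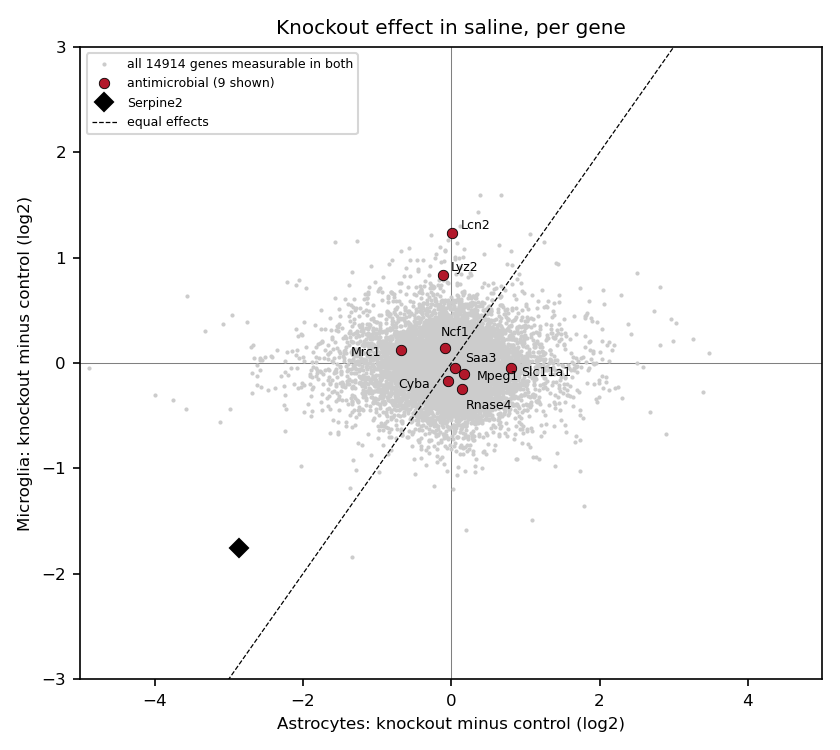
Knockout effect in microglia (vertical, log2 knockout over control) against that in astrocytes (horizontal, same unit) for genes measurable in both cell types, with Serpine2 and 9 of the 10 antimicrobial genes among them marked. Points on the diagonal have the same effect in both; 1 gene lies outside the axes. Lcn2 and Lyz2 lie near 0 in astrocytes and above 0 in microglia.

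The series title speaks of antimicrobial genes altered in microglia but not in astrocytes, and 34 such genes were listed. None had a called difference of effects. In microglia 23 of the 29 tested members had a positive knockout effect, with a median of 0.97 log2 units, against −0.00093 over all genes tested. For 14 of the 29, all 3 knockout microglia libraries lay above all 3 controls, and for none below. Over all tested genes these shares were 2.97% and 1.47%. The list was chosen with the title and earlier results of these data known. These microglial counts therefore describe the list and are no independent test of the title. In astrocytes no member had knockout libraries all above the controls and 1, Pglyrp1, had them all below, against 4.03% and 4.16% of all genes. Only 10 of the 29 were measurable in both cell types, and 10 had no read at all in an astrocyte group. Bpi, Lyz1, Acod1, Nos2 and Gzma had too few reads to be tested in either.

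Many of the listed genes encode contents of neutrophil granules and cytosol. S100a8 (chromosome 3, 90668978 to 90670035, plus strand), which encodes one chain of calprotectin, a binder of zinc and manganese, stood at 211, 289 and 449 CPM in knockout microglia, against 109, 126 and 101 CPM in control microglia. The groups did not overlap (log2 effect 1.5, SE 0.27, edgeR unadjusted p 4.27e-05, adjusted p 0.488, not called). In astrocytes it had 1, 0 and 0 reads in knockouts and 1, 0 and 0 in controls. With so few reads the difference of effects was 1.35, and its 95% interval ran from −3.19 to 5.90, so these libraries do not show whether the astrocytic effect was equal or absent. S100a9, which encodes the partner chain, stood at 249, 236 and 575 CPM in knockout microglia against 143, 187 and 85.1 CPM in controls, again without overlap, and had 0, 2 and 0 astrocyte reads in knockouts and 0, 1 and 0 in controls.

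Ngp (chromosome 9, 110419747 to 110423012, plus strand), which encodes neutrophilic granule protein, stood at 118, 205 and 241 CPM in knockout microglia against 72.6, 82.6 and 90.0 CPM in controls (log2 effect 1.20, SE 0.27). Its astrocyte libraries had no read in the knockouts and 0, 1 and 0 in the controls. The cathelicidin gene Camp stood at 53.3, 86.6 and 80.0 CPM in knockout microglia against 29.0, 23.6 and 31.5 CPM in controls (log2 effect 1.39, SE 0.28). Ltf, which encodes the iron-binding lactoferrin, stood at 71.4, 99.5 and 123 CPM in knockout microglia against 42.1, 53.0 and 29.8 CPM in controls (log2 effect 1.24, SE 0.29). None of these microglia values overlapped between genotypes, and none was called (edgeR adjusted p 1); DESeq2 called S100a8, Camp and Lcn2 in microglia. Camp and Ltf had 0 reads in all 6 astrocyte libraries, as had the granule protease genes Elane, Prtn3 and Ctsg. A count of 0 allows up to 0.277 to 0.441 CPM in an astrocyte library (3 reads, counting error only), and no astrocyte effect, and so no difference, can be given for these 5.

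Neutrophil markers were higher with these genes in knockout microglia, and that list shares S100a8, S100a9, Ngp, Camp and Ltf with them. Of its 13 tested markers 12 were higher in knockout microglia, with a median effect of 1.17 log2 units, and 10 had all knockout libraries above all controls, against 2.97% of all genes. Their summed level ran from 853 to 1644 CPM in knockout and from 431 to 565 CPM in control microglia. In astrocytes it ran from 1.76 to 4.52 CPM in knockouts and from 0.462 to 3.98 CPM in controls, with 6 of the 13 markers at 0 reads in each group. Cxcr2, the chemokine receptor of neutrophils, stood at 11, 6.33 and 15.3 CPM in knockout microglia against 5.21, 4.14 and 2.93 CPM in controls, and had 0 reads in the knockout astrocytes. All 9 tested monocyte markers, among them the listed antimicrobial gene Chil3, were also higher in knockout microglia (median 0.92 log2 units). Over all genes tested 11378 of 22829 were higher there. Only 3 of the 9 had all knockout libraries above all controls, and 2 had an unadjusted p under 0.05 in microglia (edgeR). The part of these markers in the microglial values was not tested, and in such bulk libraries fewer cells of a type and less RNA per cell cannot be told apart.

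**Figure D2:**
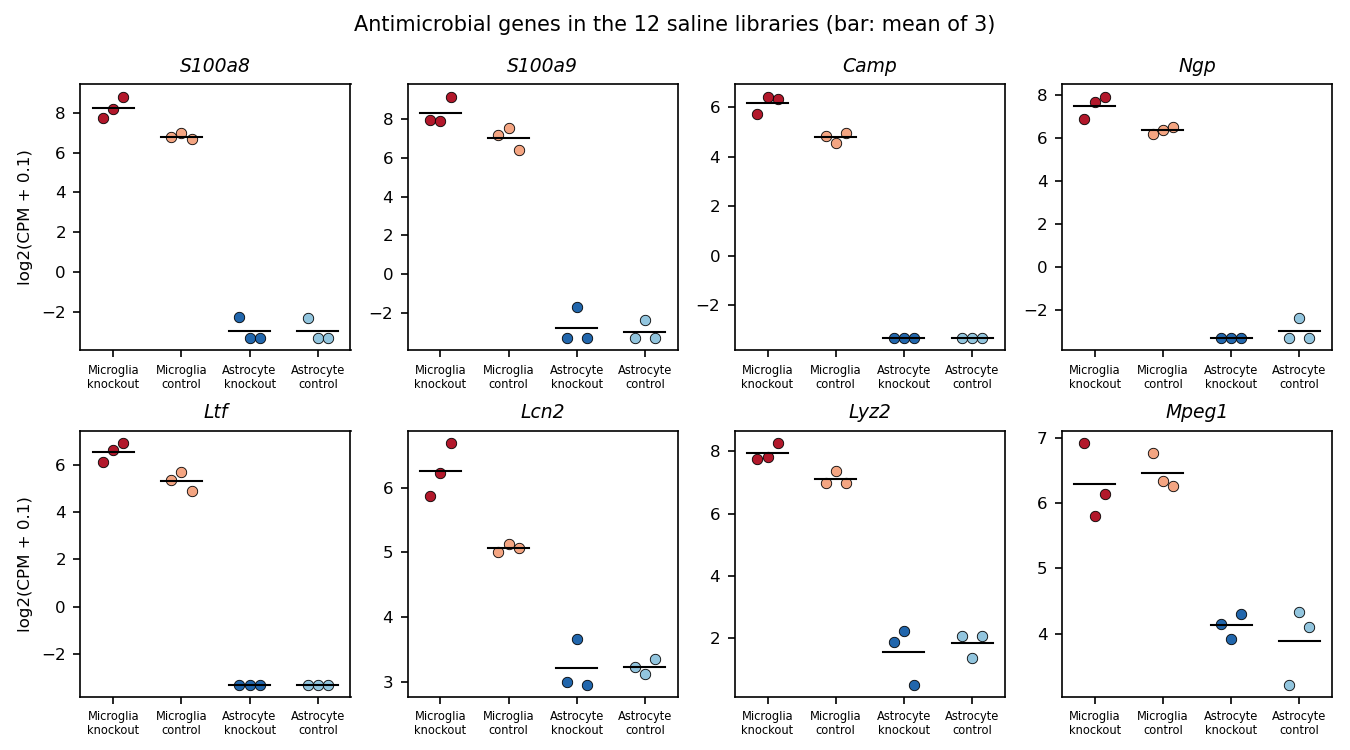
Level of antimicrobial genes in each of the 12 saline libraries (vertical axis log2 of CPM plus 0.1, bars are means of 3), with microglia left of astrocytes and knockout left of control. S100a8, Camp, Ngp and Ltf are high in microglia and at or near 0 in astrocytes, while Lcn2 has reads in all 12 libraries.

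Lcn2 (ENSMUSG00000026822, chromosome 2, 32384633 to 32388252, minus strand) encodes lipocalin 2, which binds bacterial iron carriers, and it had reads in every library. Its level was 58.2, 74.8 and 103 CPM in knockout microglia, against 31.9, 35.0 and 33.5 CPM in control microglia, with no overlap. In astrocytes it was 7.86, 12.6 and 7.64 CPM in knockouts, against 9.29, 8.59 and 10.1 CPM in controls, and the groups overlapped. The log2 effect was 1.24 in microglia (SE 0.26) and 0.01 in astrocytes (SE 0.27, 95% interval −0.56 to 0.58). The difference of effects was 1.22 (SE 0.37, 95% interval 0.44 to 2.00, edgeR unadjusted p 0.00423), and it was not called over all genes (adjusted p 0.880). It stayed positive in every fit with 1 library left out. Lcn2 is also one of the listed genes of reactive astrocytes.

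Promoter windows of Lcn2, S100a8 and Ngp are shown because the 3 genes had higher knockout values in microglia together, while only the first had astrocyte reads to compare. Each runs from 250 bases before to 50 bases after the RefSeq start site on GRCm38.p6, at chr2:32387690-32387989 (minus strand), chr3:90668821-90669120 (plus strand) and chr9:110419558-110419857 (plus strand). Capitals mark TTNNGNAA, searched on both strands, the core letters bound by C/EBP factors, which act in granulocyte and acute-phase gene expression.
Lcn2: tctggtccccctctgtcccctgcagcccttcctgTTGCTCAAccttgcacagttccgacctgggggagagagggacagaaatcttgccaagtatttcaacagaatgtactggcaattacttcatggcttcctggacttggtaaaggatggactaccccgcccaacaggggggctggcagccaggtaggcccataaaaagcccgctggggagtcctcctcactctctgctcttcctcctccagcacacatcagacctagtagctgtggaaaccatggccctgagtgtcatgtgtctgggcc
S100a8: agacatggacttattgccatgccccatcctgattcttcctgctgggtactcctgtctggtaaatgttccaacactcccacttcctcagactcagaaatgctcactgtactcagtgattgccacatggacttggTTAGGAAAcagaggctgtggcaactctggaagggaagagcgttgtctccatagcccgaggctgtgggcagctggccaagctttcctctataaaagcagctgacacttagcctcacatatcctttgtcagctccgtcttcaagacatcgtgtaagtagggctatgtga
Ngp: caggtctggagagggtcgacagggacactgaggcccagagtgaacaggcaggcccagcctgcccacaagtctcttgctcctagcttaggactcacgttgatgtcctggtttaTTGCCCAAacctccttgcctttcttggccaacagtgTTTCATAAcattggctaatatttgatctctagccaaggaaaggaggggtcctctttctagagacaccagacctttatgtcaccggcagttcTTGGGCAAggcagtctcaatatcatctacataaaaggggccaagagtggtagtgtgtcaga
The Lcn2 and S100a8 windows hold 1 match each and the Ngp window 3. Matches were found in 40.7% of the 32851 RefSeq mouse promoter windows, counted per window. Of the 29 listed antimicrobial genes with a window, 16 had a match in any of their windows, so these shares are not counted alike. A match is a description of the letters and shows no binding.

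Lyz2, the lysozyme gene of myeloid cells, stood at 213, 227 and 306 CPM in knockout microglia, against 127, 166 and 125 CPM in control microglia, with no overlap. In astrocytes it stood at 3.55, 4.63 and 1.32 CPM in knockouts, against 4.08, 2.50 and 4.05 CPM in controls, and the groups overlapped. The difference of effects was 0.95 (SE 0.45, edgeR unadjusted p 0.0492, adjusted p 0.932), not called. Lyz1 is a near-identical copy, so reads may be split between them.

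The 8 other antimicrobial genes measurable in both had no difference at an unadjusted p under 0.05. Among the subunits of the phagocyte oxidase, which makes superoxide, the difference was 0.23 for Ncf1 (95% interval −0.97 to 1.43) and −0.13 for Cyba (−1.45 to 1.18). Mpeg1, which encodes the macrophage pore protein perforin-2, had −0.28 (−1.20 to 0.64). Its levels were 122, 56.0 and 70.9 CPM in knockout microglia and 109, 81.1 and 76.7 CPM in control microglia, so the groups overlapped. The mannose receptor gene Mrc1 had 0.81 (−0.74 to 2.36), the ribonuclease gene Rnase4 −0.38 (−1.93 to 1.16), the serum amyloid gene Saa3 −0.10 (−1.70 to 1.51) and the phagosomal metal transporter gene Slc11a1 −0.85 (−2.78 to 1.07). These intervals are wide enough to hold both no difference and one of 2-fold (1 log2 unit) in at least 1 direction. Over the 10 measurable genes 5 differences were positive and 5 negative, with a median of 0.07 log2 units, against −0.02 over all genes measurable in both.

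**Figure D3:**
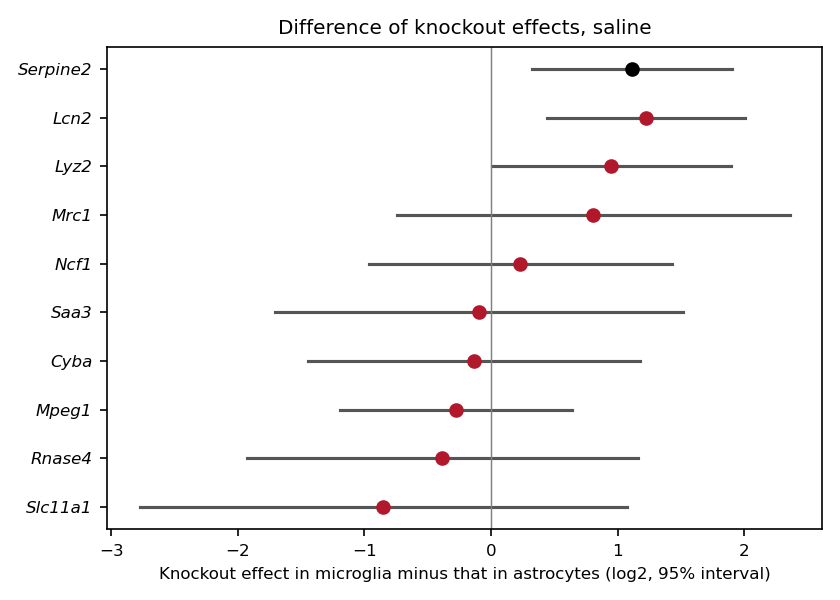
Difference of knockout effects (microglia minus astrocytes, log2) with its 95% interval for Serpine2 and 9 of the 10 antimicrobial genes measurable in both cell types. The intervals of Serpine2, Lcn2 and Lyz2 lie above 0, those of the other 7 genes shown cross it, and none of the 10 differences was called.

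Members that were readable in microglia but hardly in astrocytes gave values that rest on single reads. Pglyrp1, a peptidoglycan recognition protein of granules, stood at 17.2, 24 and 26.8 CPM in knockout microglia against 10.5, 9.35 and 15.4 CPM in controls, and had 2, 4 and 2 reads in knockout astrocytes against 4, 15 and 4 in controls. Its difference of effects was 2.22 (SE 0.74, edgeR unadjusted p 0.00845, not called). Hp, which encodes the haemoglobin scavenger haptoglobin, stood at 13.2, 17.5 and 22.3 CPM in knockout microglia against 9.69, 6.80 and 10.4 CPM in controls, and had 0 reads in knockout astrocytes against 0, 6 and 1 in controls. Mpo, the myeloperoxidase gene, stood at 7.27, 15 and 10.8 CPM in knockout microglia against 3.33, 3.51 and 4.07 CPM in controls and had at most 4 reads in an astrocyte library. All 3 were non-overlapping in microglia. Other such members had their few astrocyte reads in knockouts. Clec7a had 4, 0 and 0 reads in knockout astrocytes, Wfdc21 had 0, 7 and 1, and Chil3 had 0, 2 and 0, against none in control astrocytes for all 3 genes. Summed over the 29 tested members, the level was 1459, 1516 and 2227 CPM in knockout microglia (lowest to highest), against 778, 930 and 965 CPM in controls. In astrocytes the sums were 52.2, 63.0 and 70.0 CPM in knockouts and 61.9, 62.2 and 66.0 CPM in controls, so they overlapped.

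The proteases that Serpine2 inhibits, their receptors and other inhibitors of the plasminogen and thrombin systems were listed as 16 genes, of which 13 were tested and 8 were measurable in both. None had a called difference of effects. The 8 had a median difference of 0.53 log2 units, with 6 positive and 2 negative; their median effect was −0.03 in microglia and −0.51 in astrocytes. Plat, the gene of tissue plasminogen activator, stood at 69.1, 54.6 and 47.8 CPM in knockout microglia and 73.2, 41.6 and 54.1 CPM in control microglia, which overlapped. In astrocytes Plat stood at 21.3, 23.3 and 24 CPM in knockouts against 27.5, 24.1 and 31.0 CPM in controls, all lower without overlap, and its difference of effects was 0.29 (95% interval −0.42 to 1.00). The thrombin receptor gene F2r stood at 8.82, 5.24 and 3.23 CPM in knockout astrocytes against 13.2, 9.06 and 12.6 CPM in controls, also without overlap, with a difference of 0.62 (−0.78 to 2.03). The urokinase gene Plau had −0.41 (−1.78 to 0.96), the endocytic receptor gene Lrp1 −0.43 (−1.43 to 0.57), and Serpini1, the gene of neuroserpin, a further inhibitor of tissue plasminogen activator, 0.59 (−0.36 to 1.54). Thbd, the gene of thrombomodulin, had the smallest unadjusted p of the list (0.0107, not called), and it had 30, 11 and 0 reads in knockout astrocytes against 0, 3 and 0 in controls. Plg, Serpinf2 and F2rl1 had too few reads to be tested.

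The 30 protein-coding genes with the smallest unadjusted p, 15 in each direction, were looked at by name, and none was called (lowest adjusted p 0.880, edgeR). For 29 of the 30 the larger effect was the astrocytic one, and 28 had a lower level in control astrocytes than in control microglia. Only 12 of the 30 were measurable in both, and 6 had a group at 0 reads. Slc16a7, which encodes a monocarboxylate transporter, stood at 34.9, 42.5 and 40.9 CPM in knockout microglia and 38.5, 42.3 and 40.4 CPM in control microglia. It stood at 2.91, 1.81 and 4.56 CPM in knockout astrocytes against 13.9, 10.4 and 8.87 CPM in controls. Only the astrocyte groups did not overlap (difference 1.83, SE 0.42, edgeR unadjusted p 0.000434). Il18bp, whose product binds interleukin 18, had the same layout, with 34.2, 37.5 and 30.4 CPM in knockout and 30.6, 33.7 and 35.2 CPM in control microglia, and 7.10, 4.83 and 5.29 CPM in knockout against 12.7, 12.9 and 17.9 CPM in control astrocytes (difference 1.37, SE 0.36).

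Further positive genes measurable in both were Prrg3 (2.61, SE 0.57), the receptor phosphatase gene Ptpro (2.58, SE 0.60), Palm2 (3.41, SE 0.87), the immune-cell Ras regulator gene Rasal3 (3.69, SE 0.96), Ralyl (1.37, SE 0.36) and the metalloprotease gene Mmp23 (3.40, SE 0.94), all by a lower astrocyte level in knockouts. Their knockout astrocyte reads were few, with 7, 3 and 1 for Prrg3, 6, 13 and 2 for Ptpro and 11, 3 and 12 for Palm2. Rasal3 had 3, 0 and 2, Ralyl 18, 9 and 11, and Mmp23 2, 2 and 1. Several positive genes are known from leukocytes and also rest on few astrocyte reads. Cd52, which encodes a surface glycoprotein of leukocytes, stood at 15.3, 17.2 and 18.9 CPM in knockout microglia against 11.2, 8.18 and 8.13 CPM in controls, and had 1, 2 and 2 reads in knockout astrocytes against 7, 14 and 12 in controls. It was the one positive gene with an unadjusted p under 0.05 in microglia too, and its groups did not overlap in either cell type. Itgal, the integrin subunit of leukocyte adhesion, had 0, 2 and 0 reads in knockout astrocytes against 4, 12 and 9 in controls. The hexokinase gene Hk3 had 2, 0 and 1 reads in knockout astrocytes against 11, 9 and 10 in controls. Neurl3, Capn6 and Myl1 had 0 or 1 read in every knockout astrocyte library.

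Nr2e1, which encodes a nuclear receptor of neural stem cells also made by astrocytes, was the single gene of the 30 with the larger effect in microglia. It had 3, 6 and 4 reads (0.311, 0.345 and 0.289 CPM) in knockout microglia against 9, 8 and 21 reads (0.938, 0.850 and 1.08 CPM) in control microglia. In astrocytes it stood at 148, 166 and 169 CPM in knockouts and 149, 141 and 131 CPM in controls, and overlapped (difference −1.78, SE 0.37, edgeR unadjusted p 0.000189). Ap4m1, a subunit of the adaptor complex AP-4, had 8.20, 10.5 and 10.0 CPM in knockout microglia against 9.90, 8.82 and 14.8 CPM in controls, and 8.82, 16.3 and 9.41 CPM in knockout astrocytes against 3.68, 3.79 and 3.94 CPM in controls (difference −1.82, SE 0.51). Pde10a, the phosphodiesterase gene of striatal neurons, had 11, 13.3 and 8.53 CPM in knockout astrocytes against 6.33, 6.75 and 7.12 CPM in controls (−1.08, SE 0.31), and the muscarinic receptor gene Chrm3 had a difference of −2.38 (SE 0.63). The enkephalin gene Penk and the neurokinin receptor gene Tacr1 had 6, 6 and 2 and 1, 13 and 15 reads in knockout astrocytes and none in control astrocytes, and Kctd8 had 1, 20 and 1 against none. Cdh9, Abcc8, Cerkl, Gprc5c, Ptpn14, Arid3a and Tmem266 also had their larger values in knockout astrocytes, with at most 37 reads in any library there. Sftpb had 0, 85 and 2 reads in knockout astrocytes and none in control astrocytes, so its value rests on 1 library.

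**Figure D4:**
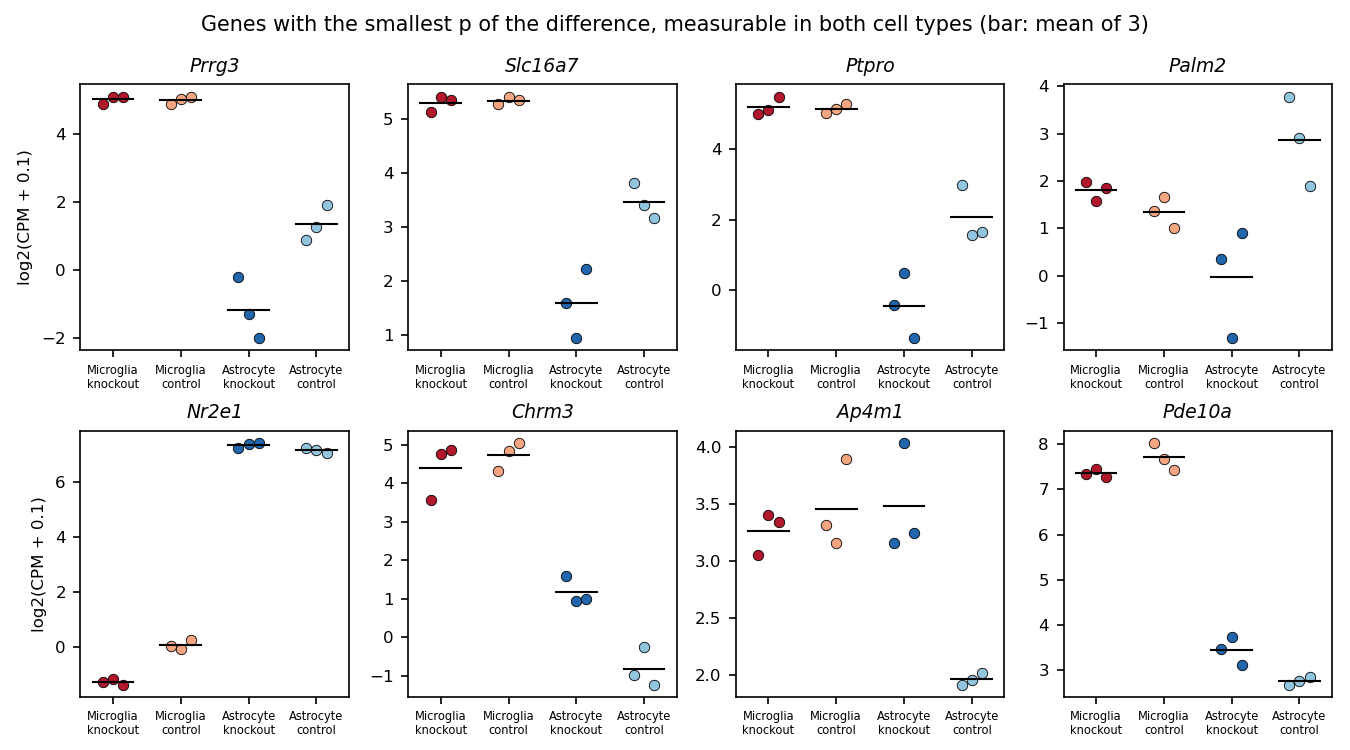
Level in each saline library (vertical axis log2 of CPM plus 0.1, bars are means of 3) of 8 genes measurable in both cell types with the smallest unadjusted p of the difference, 4 positive (Prrg3, Slc16a7, Ptpro, Palm2) and 4 negative (Nr2e1, Chrm3, Ap4m1, Pde10a). The genotypes separate in astrocytes for all but Nr2e1, which separates in microglia at a level under 1.1 CPM.

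The 12 oligodendrocyte markers all had a positive difference of effects, with a median of 0.71 log2 units against −0.02 over all genes measurable in both; the median effect was 0.03 in microglia and −0.70 in astrocytes. None was called, and only Ugt8a, an enzyme of myelin lipid synthesis, had an unadjusted p under 0.05 (1.03, SE 0.47, edgeR p 0.0429). In astrocytes 7 of the 12 had all knockout libraries below all controls, against 4.16% of all genes. The median difference was 0.36 without microglia knockout 1, 0.43 without microglia control 2 and 0.46 without astrocyte knockout 3. Their summed level was 5212, 6708 and 8752 CPM in knockout astrocytes (lowest to highest) and 8351, 9330 and 10054 CPM in control astrocytes, so the sums overlapped. Among the oligodendrocyte precursor markers 6 of the 7 measurable in both were positive, with a median of 0.49, which was 0.17 without microglia control 2 and 0.97 without microglia control 1. The 12 markers of microglia had a median effect of −0.25 in microglia and −0.30 in astrocytes and a median difference of 0.00057; in astrocytes 4 of the 12 had all knockout libraries below all controls, against 4.16% of all genes. Their summed level in astrocytes was 311, 315 and 380 CPM in knockouts and 386, 402 and 446 CPM in controls. The part of these cells in the astrocyte effects, which enter each difference above, was not tested.

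Other gene groups of the 2 cell types had no called member. The 16 genes of astrocyte homeostasis (transporters, water and gap junction channels) had a median difference of 0.11 log2 units, 9 positive and 7 negative. Slc1a2, the main glutamate transporter gene, had 0.28 (SE 0.30) and the water channel gene Aqp4 0.53 (SE 0.39). Of the 19 measurable genes of homeostatic microglia 10 were positive and 9 negative, with a median of 0.02. All 20 tested had a knockout effect below 0 in microglia (median −0.22), where 11378 of all 22829 genes were above 0. None of the 20 had non-overlapping microglia libraries or an unadjusted p under 0.05 there (edgeR). Their summed level was 2319, 2506 and 5166 CPM in knockout and 2848, 3775 and 5187 CPM in control microglia. In astrocytes 5 of the 20 were above 0 (median −0.25). Pan-reactive astrocyte genes had a median of 0.66 over 7 measurable members (0.38 without microglia knockout 1), of which Lcn2 and Vim had an unadjusted p under 0.05. Vim, the intermediate filament gene, stood at 19.0, 13.2 and 26.2 CPM in knockout and 9.17, 14.3 and 6.54 CPM in control microglia, which overlapped, and at 56.9, 57.0 and 43.1 CPM in knockout and 56.6, 52.8 and 58.4 CPM in control astrocytes (difference 1.07, SE 0.41, edgeR unadjusted p 0.0200). Gfap, the astrocyte filament gene, had 0.66 (SE 0.37).

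Interferon-stimulated genes had a median difference of −0.17 over 9 measurable members, with none at an unadjusted p under 0.05. Genes of antigen presentation by MHC class I had −0.12 over 8, and those of class II −0.14 over 3. Of the class I genes only H2-D1, which encodes a heavy chain, had an unadjusted p under 0.05, with a positive difference of 0.87 (SE 0.40, edgeR p 0.0447, not called). The class II chaperone gene Cd74 stood at 46.4, 35.7 and 45.2 CPM in knockout against 16.4, 27.8 and 36.8 CPM in control microglia, and at 3.55, 3.62 and 2.06 CPM in knockout astrocytes against 0, 1.48 and 0.329 CPM in controls (difference −1.65, SE 0.78, edgeR unadjusted p 0.0501). Complement genes had a median of 0.28 over 8 and C1qb 0.32 (SE 0.56), and the 5 measurable cytokine and chemokine genes 0.74. The complement median was −0.26 without microglia knockout 1 and −0.11 without microglia control 2, and the cytokine median was 0.30 with a minimum count of 50. Cell cycle genes had 0.42 over 14, with Top2a (1.73, SE 0.74) and Aurka (1.78, SE 0.81) at an unadjusted p under 0.05, and their median was 0.15 without astrocyte knockout 2 and 1.15 without astrocyte knockout 1. Genes that respond to dissociation of tissue had −0.28 over 18, with 13 negative, and Fos −0.43 (SE 0.30). Genes of disease-associated microglia had 0.17 over 10, with Lgals3, a galectin gene, at 2.01 (SE 0.83), serpins other than Serpine2 0.08 over 7, and A1 astrocyte genes −0.11 over 8.

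The same difference of effects was computed in the 12 LPS libraries, which share no sample with the saline ones; this was chosen after seeing the data. LPS is a component of bacterial outer membranes. None of 23477 genes was called (edgeR), and 1156 (4.92%) had an unadjusted p under 0.05. Of the 15 positive saline genes 5 had the same sign in LPS, with a median of −0.77 log2 units against 3.40 in saline, and none had the same sign with an unadjusted p under 0.05. Of the 15 negative genes 8 had the same sign, with a median of −0.15 against −3.20, and none had an unadjusted p under 0.05. All these genes were chosen by their saline p. Their saline medians are therefore large by that choice, and the LPS medians are not.

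**Figure D5:**
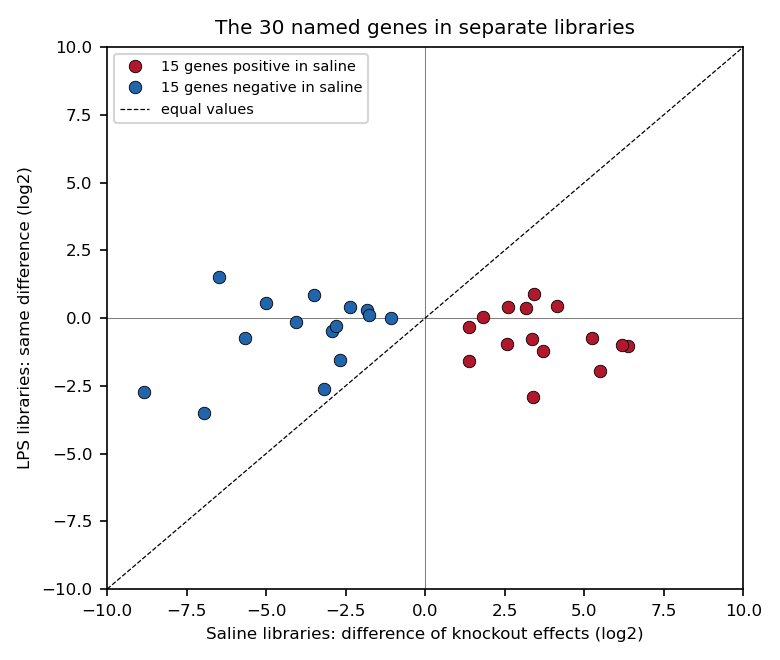
Difference of knockout effects (microglia minus astrocytes, log2) in the 12 LPS libraries (vertical) against that in the 12 saline libraries (horizontal) for the 15 positive and 15 negative named genes; the dashed line marks equal values. The LPS values lie nearer to 0 than the saline ones except for Ralyl, and 5 of the 15 positive and 8 of the 15 negative genes keep their sign. The genes were chosen by their saline p, so their saline values are large by that choice.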

How the data were processed

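The authors deposited raw counts, 1 whole number per Ensembl gene and library. STAR 2.6.0c was the aligner and HTSeq the counter, per the submitters' processing notes, which list both GRCm38 and GRCm39 with no role for either; counting mode and strand setting were not given in the sources used here, so overlapping and antisense genes are uncertain. Symbols came from GENCODE M21 for 52093 of the 52404 shared identifiers. Rows outside genes were dropped. They held 70.6% to 79.3% of reads per microglia library and 40.2% to 44.9% per astrocyte library, so this share goes together with cell type.

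The 12 saline libraries were fitted together with edgeR 4.0.16 under R 4.3.3 (filterByExpr at its min.count of 10 and min.total.count of 15, TMM, robust quasi-likelihood, 1 mean per group). The difference of effects was a contrast over the 4 groups, tested two-sided and adjusted by Benjamini-Hochberg over all 22829 genes tested. SE was the size of the fitted log2 value divided by the square root of its quasi-likelihood F statistic. The 95% intervals used this SE. For genes with few reads in a group both are rough. Chil3, for example, had an SE of 1.64 for the difference, below that of 1.90 for its astrocyte effect. Intervals do not cover counting of duplicate molecules. The fit was tested on simulated data. Genes measurable in both passed filterByExpr within each cell type separately.

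Genes were named by rule: Serpine2, the tested members of the antimicrobial and plasminogen-thrombin lists, 15 genes per direction with the smallest unadjusted p (leaving out predicted, pseudogene and sex-linked entries), and up to 4 per other list. A few members counted in the totals are not reported here by name. Oligodendrocyte and other markers were summed as CPM. The genes, lists and tests were chosen with earlier results of these data known. Alternatives were RLE factors, DESeq2 1.42.0, no filter, a minimum count of 50, genes measurable in both, sex from the labels, a replicate block, all 24 libraries, limma 3.58.1 voom with group weights, mitochondrial and the 10 most abundant genes left out, and each of the 12 libraries left out. No pair of libraries held identical values.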

Additional observations from a re-analysis of the deposited data

How the results depend on the processing

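The difference of effects was called for no gene with RLE factors, a minimum count of 50, genes measurable in both, sex, all 24 libraries, voom or the most abundant genes left out, or with any library left out (0 to 0). Without a filter 86 genes passed, 20 of them measurable in both and 28 with a group at 0 reads, and DESeq2 called 2. The microglial effect, called for none, was called for 5 genes without a filter (Serpine2, S100a8, S100a9, Gh and Prl), for 1 with all 24 libraries (Serpine2) and for 4 by DESeq2 (Serpine2, S100a8, Camp and Lcn2), and for 0 to 1 with a library left out (1 without microglia control 2 and without astrocyte control 1). The astrocytic effect, called for 2, was called for 431 without a filter, 128 by DESeq2, 1 with sex, 1 with all 24 libraries, 1 with voom and 1 to 6 with a library left out (6 without astrocyte control 1). The cause was not tested. The antimicrobial median difference of 0.07 ran from 0.06 to 0.23, and from −0.11 to 0.30 with a library left out. The microglial effect turned to −0.0643 with voom for Mrc1 and to 0.0022 with sex for Slc11a1. With a library left out, the single-gene values so refitted that changed sign, none of them called, were the differences, −0.29 to 0.11 for Saa3, −0.48 to 0.16 for Cyba, −0.27 to 0.77 for Ncf1 and −1.20 to 0.0455 for Rnase4, and the microglial effects, −0.25 to 0.15 for Saa3, −0.41 to 0.43 for Mrc1, −0.22 to 0.62 for Clec7a, −0.52 to 0.12 for Cyba, −0.36 to 0.56 for Ncf1, −0.49 to 0.11 for Mpeg1, −0.74 to 0.38 for Ang and −0.42 to 0.26 for Slc11a1. Median differences of lists that changed sign so were −0.49 to 0.23 for microglia markers, −0.11 to 0.24 for astrocyte, −0.13 to 0.24 for neuron and −0.67 to 0.67 for endothelial markers, −0.48 to 0.21 for homeostatic and −0.18 to 0.42 for disease-associated microglia, −0.15 to 0.28 for astrocyte homeostasis, −0.37 to 0.13 for A1 astrocyte genes, −0.20 to 0.19 for serpins, −0.41 to 0.13 for interferon-stimulated genes, −0.35 to 0.04 for MHC class I, −0.26 to 0.57 for complement and −0.47 to 0.0075 for dissociation genes.

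The replicate numbers did not pair the libraries. Same-numbered libraries deviated together with a correlation of 0.438, −0.0827 and −0.108 in microglia and −0.0806, −0.0129 and 0.00198 in astrocytes. Only microglia knockout 1 correlated best with the control of its own number. Its gene counts were 6102404, against 6093966 in that control, and both had 28860 detected genes. With the number as a block, 0 differences, 0 microglial and 1 astrocytic effect were called.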

Other observations

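In the LPS libraries Slc16a7 had a difference of effects of 0.02 (95% interval −1.17 to 1.22), with 5.81 ± 3.57 CPM in knockout and 5.49 ± 1.77 CPM in control astrocytes (SD, n = 3 each). Il18bp had −0.35 (−1.59 to 0.89) and Nr2e1 0.11 (−1.23 to 1.46). Lcn2 had 0.29 (−2.45 to 3.03), with 138 ± 34.2 CPM in knockout and 103 ± 38.6 CPM in control microglia, and 1670 ± 815 CPM in knockout and 1518 ± 1265 CPM in control astrocytes (n = 3 each). Lyz2 had 0.48 (−0.69 to 1.65) and Serpine2 0.44 (−0.28 to 1.16). The microglial log2 effect of Lyz2 was 0.79, with 905 ± 193 CPM in knockout and 524 ± 77.9 CPM in control microglia. Among the granule genes in LPS, S100a8 had a microglial log2 effect of 0.02, with 163 ± 66.2 CPM in knockout and 161 ± 52.5 CPM in control microglia (SD, n = 3 each), and S100a9 had 0.35. Camp had −1.21, with 10.1 ± 6.05 CPM in knockout and 23.2 ± 1.25 CPM in control microglia, Ngp had −0.89 and Ltf −0.76. Pglyrp1, with a difference of effects of 2.22 in saline, had −2.72 in LPS (95% interval −4.75 to −0.69, edgeR unadjusted p 0.0121, adjusted p 0.942, not called). Hp kept its sign, with a difference of 5.42 in saline, where knockout astrocytes had 0 reads. In LPS its difference was 1.81 (95% interval 0.06 to 3.56, edgeR unadjusted p 0.0433, not called). The change of these values between saline and LPS was not tested.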
